A study of Mus musculus with 6 samples.

Results

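The 10 genes described here encode the core machinery that divides and joins mitochondria, and were found in the files by gene symbol: Dnm1l, Fis1, Mff, Mief1 and Mief2 for fission, Mfn1, Mfn2 and Opa1 for fusion, and Oma1 and Yme1l1 for the processing of OPA1. All 10 were found among the 54532 genes listed in each library. All 10 also had a mean of at least 1 FPKM over the libraries (fragments relative to the length of a gene's exons and the depth of its library), which was the condition for testing, and which 10540 genes met. The cells are iBMDMs, mouse macrophages grown from bone marrow whose unlimited growth comes from the retroviral oncogenes v-raf and v-myc. The groups differ in the shRNA that a lentivirus brought in, a control sequence in one and a sequence against PGAM5 in the other. Poly(A) RNA from 3 control and 3 PGAM5 KD libraries was sequenced after treatment with LPS at 100 ng/ml for 4 hours. Both groups carry a lentivirus, both were treated with LPS, and no untreated library was compared, so the values describe LPS-treated cells only. Each knockdown is given as a single shRNA label, and whether replicates are separate cultures is not stated, so p-values measure the spread between these libraries. In bulk RNA, fewer cells that express a gene and less RNA per cell cannot be told apart.

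Mitochondria divide when Drp1, the cytosolic GTPase encoded by Dnm1l, is recruited by receptors of the outer membrane, assembles into a ring and constricts the organelle. Fusion needs the mitofusins in the outer membrane and OPA1 in the inner membrane, and OPA1 is cut by the proteases OMA1 and YME1L1, which sets the balance of its long and short forms. PGAM5 is a mitochondrial phosphatase known to dephosphorylate Drp1, and the question behind the comparison is what loss of PGAM5 does to LPS-treated macrophages. RNA levels say nothing of the phosphorylation, cleavage or location of these proteins, and gene-level FPKM does not separate their splice forms.

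The libraries held between 18163462 and 24388914 fragments on genes. Pgam5, the targeted gene, was at 17.1, 13.0 and 13.4 FPKM in control and at 4.33, 5.75 and 4.53 FPKM in PGAM5 KD libraries. It fell by 1.40 on the log2(FPKM + 1) scale (95% interval -1.70 to -1.10, limma adjusted p = 0.000358). On the opposite strand, a noncoding gene listed at 0 in every library, Gm26718, covers 58.1% of the exon bases of Pgam5, and the strand setting of the counting is not given in the sources used here. Of 9 macrophage markers 8 reached 1 FPKM and Mertk was listed at 0. Their summed level was 2977 to 3062 FPKM in control and 2689 to 2717 FPKM in PGAM5 KD libraries, and its part in the results was not tested. The summed markers of neutrophils, fibroblasts and lymphocytes stayed at or below 0.328 FPKM in every library, with 5 of 7, 4 of 6 and 4 of 6 markers at 0. The FPKM of all genes added up to 304393 to 304889 in the control group but 317936 to 324298 in the PGAM5 KD group, so each result was also read after scaling to TPM, which makes these sums equal.

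Fission genes moved in opposite directions in PGAM5 KD macrophages: Fis1 rose, while Dnm1l and the receptor gene Mief1 fell. Among fusion genes Mfn1 rose, while the values of Mfn2 and Opa1 did not pass the test. In all, 4 of the 10 genes passed an adjusted p of 0.05, 2 higher and 2 lower, against 31.7% of all genes tested, of which 16.8% were higher and 14.9% lower. None of the 10 (0 of 10, limma) was differentially expressed at an absolute log2 fold change above 1, as 1.32% of genes tested were, and voom on the recovered fragments also gave 0. At an unadjusted p under 0.05, 3 genes were higher and 3 lower, with Yme1l1 and Mff joining the 4 called genes, against 22.7% higher and 20.1% lower among all genes tested. Without control replicate 1 or 2 or any 1 PGAM5 KD library, 1 gene was higher, and without any 1 control library or PGAM5 KD replicate 1 or 3, 1 gene was lower. With 1 library left out, the share of all genes tested was also smaller, 11.5% to 14.1% higher and 10.7% to 12.9% lower. The median log2 fold change of the 10 genes was 0.01, and that of all genes tested was 0.01. The libraries of 7 of the 10 genes did not overlap between the groups, against 47.1% of genes tested. After scaling to TPM 1 of the 10 was higher and 4 were lower, against 10.3% higher and 21.7% lower among all genes tested. That scaling moved the split of all calls from 1771 higher and 1575 lower to 1088 higher and 2282 lower.

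**Figure D1:**
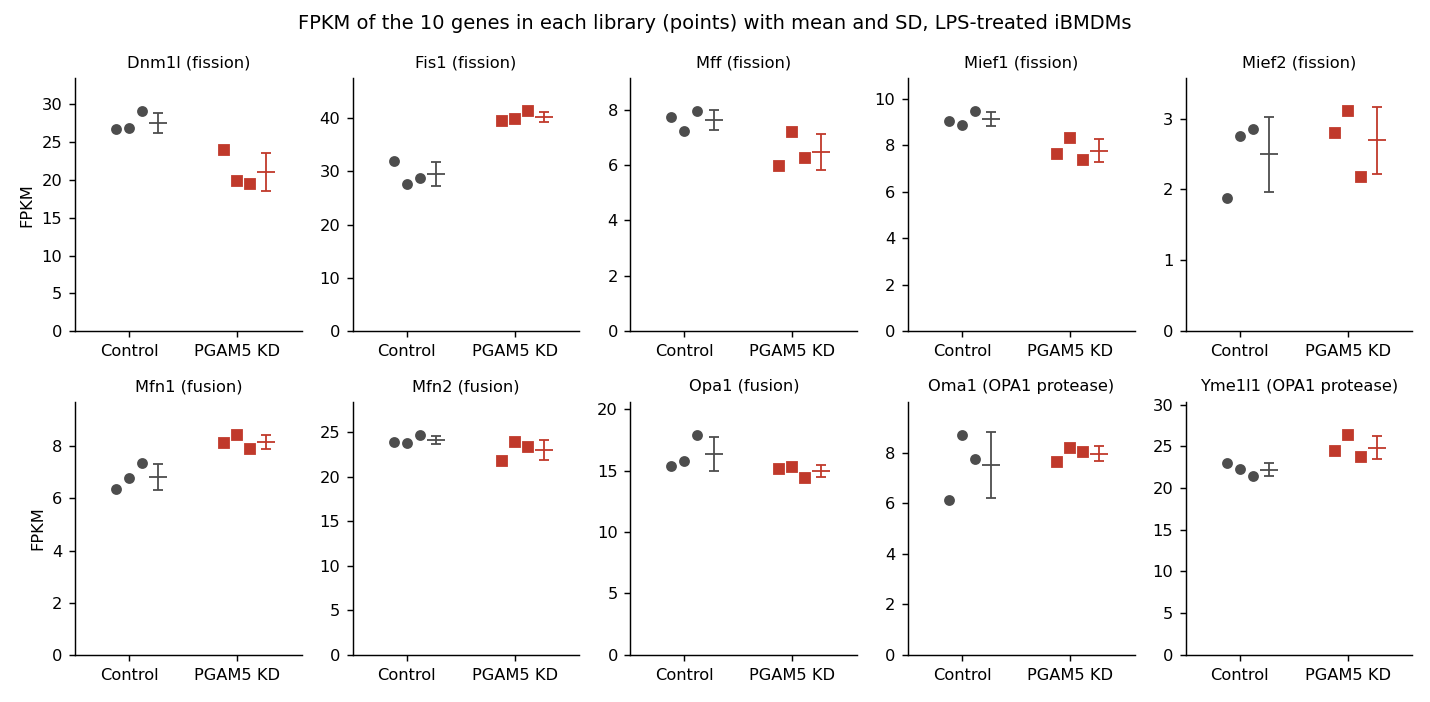
FPKM of each gene (vertical axes, from 0) in the 3 control libraries (circles) and the 3 PGAM5 KD libraries (squares), with the mean and SD of each group beside the points. Dnm1l, Mff, Mief1 and Opa1 lie lower and Fis1, Mfn1 and Yme1l1 higher in every PGAM5 KD library than in every control library, while Mief2, Mfn2 and Oma1 overlap.

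Dnm1l, the gene for the dividing GTPase Drp1, was at 26.7, 26.9 and 29.1 FPKM in control and at 24.0, 19.8 and 19.4 FPKM in PGAM5 KD libraries. All PGAM5 KD libraries lay below all control libraries, and PGAM5 KD replicate 1 lay nearest to them. Over all genes tested that library also stood apart from the other PGAM5 KD libraries, with a chi-square per degree of freedom of 8.17 and 8.93 against 5.06 between the other pair and 5.22 to 5.74 among control libraries. The mean went from 27.5 ± 1.32 to 21.1 ± 2.52 FPKM (SD, n = 3), and on the log2 scale Dnm1l fell by 0.38 (95% interval -0.57 to -0.18, limma adjusted p = 0.0142). Without PGAM5 KD replicate 1 Dnm1l fell by 0.47 (adjusted p = 0.00216). The call was kept when any 1 library was left out, with an adjusted p of at most 0.0486, and after scaling to TPM Dnm1l fell by 0.46 (adjusted p = 0.00812). Of all genes tested, 7.34% had a lower log2 fold change than Dnm1l. Its exons share 243 bases with an antisense gene, Gm49521, which had at most 3 fragments against 1873 to 2951 on Dnm1l.

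Fis1, which encodes a tail-anchored adaptor of the outer membrane, was at 31.9, 27.6 and 28.7 FPKM in control and at 39.5, 39.8 and 41.2 FPKM in PGAM5 KD libraries. The PGAM5 KD libraries were close to each other and all above the control libraries, of which replicate 1 was the highest. The mean went from 29.4 ± 2.26 to 40.2 ± 0.924 FPKM (SD, n = 3), a rise of 36.6% in the mean and of 0.44 on the log2 scale (95% interval 0.30 to 0.57, limma adjusted p = 0.0017). Leaving out each library in turn gave log2 fold changes between 0.40 and 0.50 with an adjusted p of at most 0.00946. Corrected for the GC content and length of exons, the value was 0.31 (adjusted p = 0.00432). GC content here is that of a gene's longest transcript, and length is the sum of its exons. Fis1 has the shortest summed exon of the 10 genes, 1714 bases, and its longest transcript has 54.4% GC. Only Fis1 and Dnm1l of the 10 genes passed the test under each of 17 alternative settings. These and the other counts of settings leave out the fit without a filter on low values, for which limma warned that its estimates were unreliable.

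The receptors that bring Drp1 to the outer membrane are encoded by Mff, Mief1 and Mief2, the last pair for MiD51 and MiD49. Mief1 was at 9.03, 8.89 and 9.45 FPKM in control and at 7.63, 8.32 and 7.36 FPKM in PGAM5 KD libraries. The groups did not overlap, and Mief1 fell by 0.21 on the log2 scale (95% interval -0.35 to -0.07, limma adjusted p = 0.0348). That call was lost when any 1 library other than PGAM5 KD replicate 2 was left out (adjusted p between 0.0649 and 0.104) and when corrected for the GC content and length of exons (-0.13, adjusted p = 0.138).

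Mff was at 7.72, 7.24 and 7.94 FPKM in control and at 5.96, 7.21 and 6.26 FPKM in PGAM5 KD libraries. The groups were separated by a narrow gap, between control replicate 2 and PGAM5 KD replicate 2. The log2 fold change of Mff was -0.21 (95% interval -0.39 to -0.03), of the size of that of Mief1, and did not pass the test (limma adjusted p = 0.0744). It passed without PGAM5 KD replicate 2 (-0.28, adjusted p = 0.0329), after scaling to TPM (-0.31, adjusted p = 0.0247) and with voom on the recovered fragments (-0.25, adjusted p = 0.0101). Mief2, the lowest of the 10 genes, was at 1.88, 2.76 and 2.85 FPKM in control and at 2.80, 3.10 and 2.17 FPKM in PGAM5 KD libraries, on 93 to 167 fragments a library. Its groups overlapped, and its interval of -0.27 to 0.43 around 0.08 leaves room for a change in either direction. With 1 library left out the value lay between -0.0506, without control replicate 1, and 0.187, without PGAM5 KD replicate 3.

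The mitofusin genes are Mfn1 and Mfn2, and the difference between their changes was not tested. Mfn1, whose product tethers outer membranes, was at 6.36, 6.80 and 7.35 FPKM in control and at 8.14, 8.43 and 7.91 FPKM in PGAM5 KD libraries. The groups did not overlap, and Mfn1 rose by 0.23 on the log2 scale (95% interval 0.08 to 0.38, limma adjusted p = 0.0321). Scaling to TPM left a value of 0.17 that did not pass (adjusted p = 0.0988), and the call was also lost when any 1 library other than control replicate 3 was left out (adjusted p between 0.062 and 0.0971).

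Mfn2, which also links mitochondria to the endoplasmic reticulum, had the higher level of the pair. It was at 23.9, 23.8 and 24.7 FPKM in control and at 21.8, 24.0 and 23.4 FPKM in PGAM5 KD libraries, and the groups overlapped. Its log2 fold change of -0.06 had the narrowest interval of the 10 genes, -0.17 to 0.04 (limma adjusted p = 0.329), and was -0.0265 without PGAM5 KD replicate 1, the lowest library. Under TPM the value of Mfn2 was -0.14 and passed (adjusted p = 0.0478).

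Opa1, the GTPase gene of inner membrane fusion, was at 15.4, 15.8 and 17.9 FPKM in control and at 15.2, 15.3 and 14.4 FPKM in PGAM5 KD libraries. The groups did not overlap, but control replicate 1 and PGAM5 KD replicate 2 nearly touched. The log2 fold change of Opa1 was -0.12 (95% interval -0.27 to 0.03, limma adjusted p = 0.2), and it passed the test under 0 of 17 alternative settings, with adjusted p from 0.0596 to 0.475. Its value was -0.0555 without control replicate 3, the highest library, and -0.0675 when corrected for the GC content and length of exons.

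For the proteases that cut OPA1, both log2 fold changes were positive and neither passed the test. Yme1l1, the constitutive protease of the pair, was at 22.9, 22.2 and 21.4 FPKM in control and at 24.5, 26.3 and 23.7 FPKM in PGAM5 KD libraries. All PGAM5 KD libraries were above all control libraries, with a log2 fold change of 0.15 (95% interval 0.03 to 0.27, limma adjusted p = 0.0601), which passed under 5 of 17 alternative settings, and which was 0.08 under TPM (adjusted p = 0.288). Oma1, the stress-activated protease, was at 6.11, 8.69 and 7.74 FPKM in control and at 7.62, 8.19 and 8.03 FPKM in PGAM5 KD libraries. Control replicate 1 was the lowest and control replicate 2 the highest of the 6, and the log2 fold change of 0.08 (95% interval -0.18 to 0.34, limma adjusted p = 0.605) turned to -0.04 without control replicate 1 and was 0.18 without control replicate 2.

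**Figure D2:**
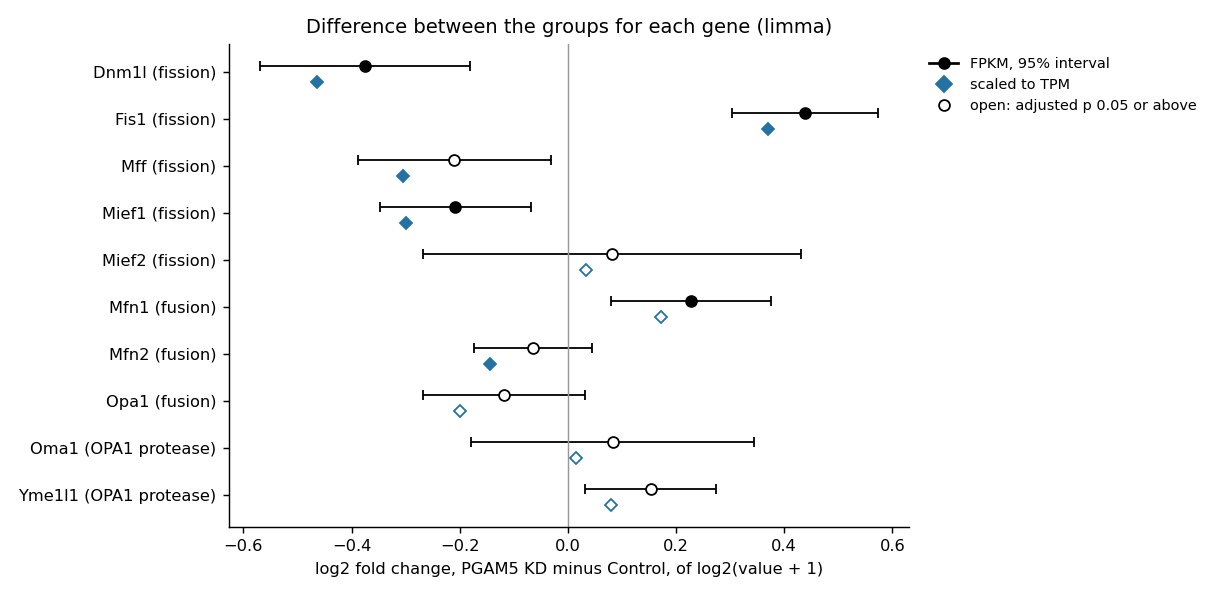
Log2 fold change of each gene, PGAM5 KD minus control, on the log2(value + 1) scale (horizontal axis), for FPKM (circles with limma's 95% interval) and for values scaled to TPM (diamonds), where filled symbols have an adjusted p under 0.05. Dnm1l and Fis1 lie farthest from 0, at -0.38 and 0.44, and each TPM value lies to the left of its FPKM value.

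With 3 libraries against 3, the exact two-sided permutation test of a single gene cannot give a p below 0.1, and that value was reached by the 7 genes whose groups did not overlap. The same exact permutation test gave 0.3 for Mfn2, 0.6 for Mief2 and 0.8 for Oma1.

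The levels of the 10 genes, per length, spanned from 2.496 FPKM for Mief2 to 29.4 FPKM for Fis1 in control means. In control libraries Fis1 and Dnm1l came first with overlapping ranges, followed by Mfn2 at 24.1, Yme1l1 at 22.2 and Opa1 at 16.4 FPKM, none of which overlapped its neighbour. Mief1 at 9.12 FPKM came next and stood clear of Mff at 7.63 FPKM, while Mff overlapped Oma1 at 7.51 FPKM and Oma1 overlapped Mfn1 at 6.83 FPKM. In PGAM5 KD libraries Fis1 stood alone at 40.2 FPKM, followed by Yme1l1 at 24.8, Mfn2 at 23.1 and Dnm1l at 21.1 FPKM, and the ranges of Yme1l1 and Mfn2, and of Mfn2 and Dnm1l, overlapped. Mfn1 at 8.16, Oma1 at 7.95 and Mief1 at 7.77 FPKM followed Opa1 at 15.0 FPKM, each overlapping its neighbour in that run of 3, ahead of Mff at 6.48 and Mief2 at 2.69 FPKM.

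Ratios within a library do not depend on how the library is scaled, and are given as a description without a test. The summed FPKM of the 5 fission genes over that of the 3 fusion genes was 1.69, 1.58 and 1.56 in control and 1.77, 1.64 and 1.67 in PGAM5 KD libraries. The groups overlapped, with means of 1.61 ± 0.07 and 1.69 ± 0.0679 (SD, n = 3). The group means of the sums went from 76.2 ± 2.52 to 78.2 ± 1.71 FPKM for fission and from 47.3 ± 2.29 to 46.2 ± 1.34 FPKM for fusion genes.

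Within the fission sum, Fis1 and Dnm1l moved apart. Fis1 made up 41.3%, 37.6% and 36.8% of the sum in control and 49.5%, 50.8% and 53.9% in PGAM5 KD libraries. Dnm1l made up 34.5%, 36.7% and 37.2% in control and 30.01%, 25.3% and 25.4% in PGAM5 KD libraries. Neither share overlapped between the groups, and the ratio of Fis1 to Dnm1l went from 1.07 ± 0.111 to 1.93 ± 0.247 (SD, n = 3).

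Without Fis1, the ratio of fission to fusion genes was 0.992, 0.986 and 0.987 in control and 0.895, 0.806 and 0.77 in PGAM5 KD libraries. The direction was thus the opposite of that with Fis1, and the groups no longer overlapped. Dnm1l over Opa1 alone was also lower in each PGAM5 KD library, at 1.58, 1.295 and 1.35 against 1.73, 1.70 and 1.62 in control libraries. The direction of a summed fission to fusion ratio therefore depended on whether Fis1, the fission gene that rose most, was counted. The ratio was not read with Dnm1l, the fission gene that fell most, left out instead.

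Relative to Dnm1l, Mff and Mief1 overlapped between the groups and Mief2 did not. Mff over Dnm1l was 0.277 ± 0.0107 in control and 0.312 ± 0.0581 in PGAM5 KD libraries (SD, n = 3), and Mief1 over Dnm1l was 0.332 ± 0.0066 and 0.372 ± 0.051. Mief2 over Dnm1l was 0.0707, 0.103 and 0.098 in control and 0.117, 0.156 and 0.112 in PGAM5 KD libraries, on the few fragments of Mief2 given above. Mfn1 over Mfn2 was 0.266, 0.286 and 0.297 in control and 0.373, 0.352 and 0.338 in PGAM5 KD libraries, with no overlap. Yme1l1 over Oma1 overlapped, at 3.03 ± 0.638 and 3.12 ± 0.155.

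**Figure D3:**
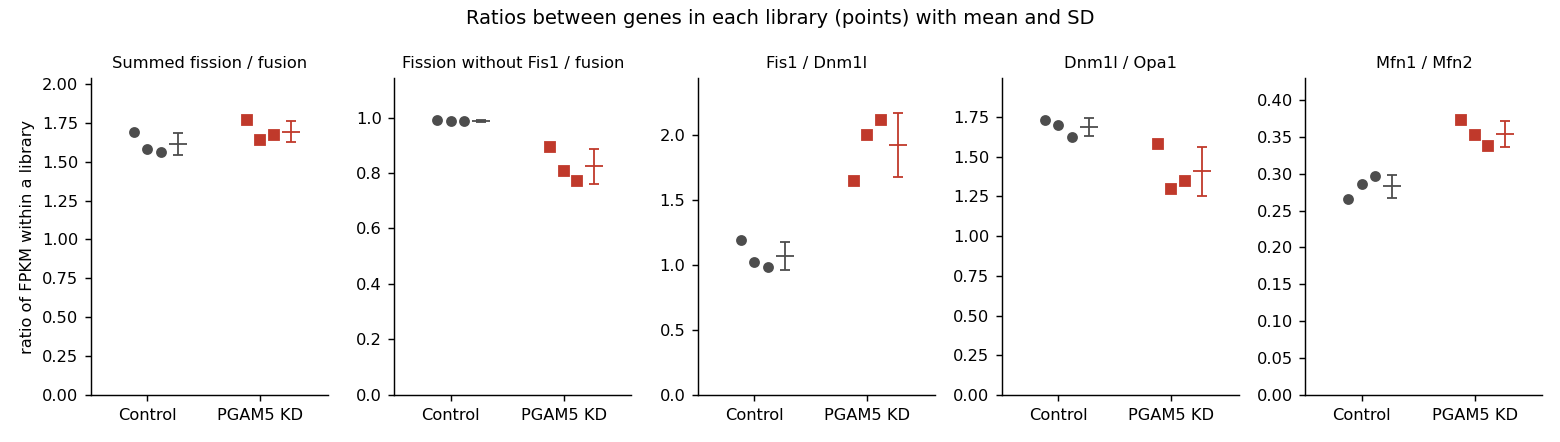
Ratios of FPKM within each library (vertical axes, from 0) for 3 control (circles) and 3 PGAM5 KD libraries (squares), with the mean and SD of each group. Summed fission over fusion overlaps between the groups, while Fis1 over Dnm1l and Mfn1 over Mfn2 are higher, and fission without Fis1 over fusion and Dnm1l over Opa1 are lower, in every PGAM5 KD library.

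Other genes of mitochondrial shape were read from 6 lists of accessory factors with 53 genes in all, of which 49 had a mean of at least 1 FPKM. Of these 9 rose, 3 fell and 37 did not pass the test, and 0 were differentially expressed at an absolute log2 fold change above 1. Together 24.5% were called, against the 31.7% of all genes tested given above, and the median log2 fold change was 0.04. After scaling to TPM 5 were higher and 6 were lower, against 10.3% and 21.7% of all genes tested. Without control replicate 2 or control replicate 3 the number that rose was 5, against 13.0% and 12.4% of all genes tested. The number that fell was 5 without PGAM5 KD replicate 1 and 1 without PGAM5 KD replicate 2, against 12.9% and 10.9%.

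Of 15 tested genes that modify Drp1 or the mitofusins, 1 rose and 2 fell, against 16.8% and 14.9% of all genes tested, and 1 was higher and 4 were lower after scaling to TPM, against 10.3% and 21.7%. Huwe1, a ubiquitin ligase known to act on mitofusin 2, fell from 26.7 ± 0.932 to 18.6 ± 0.723 FPKM (SD, n = 3, log2 fold change -0.50, limma adjusted p = 0.000379). March5, a ubiquitin ligase of the outer membrane known to act on Drp1 and its receptors, rose from 38.0 ± 1.76 to 50.3 ± 1.11 FPKM (log2 fold change 0.39, limma adjusted p = 0.00079). Both were called under all 17 alternative settings, of which the correction for GC content and length moved Huwe1 most, to -0.28 (adjusted p = 0.00241). Akap1, which anchors protein kinase A at the outer membrane where the kinase phosphorylates Drp1, fell from 15.9 ± 0.813 to 13.4 ± 0.621 FPKM (log2 fold change -0.23, limma adjusted p = 0.0199), a call lost without control replicate 2, control replicate 3 or PGAM5 KD replicate 2 (adjusted p between 0.0508 and 0.0619). The other 12 genes of this list did not pass.

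Among the genes of the cristae junction complex (MICOS) and its partners, 5 of 11 rose and 0 fell (limma), against 16.8% and 14.9% of all genes tested, with a median log2 fold change of 0.17. After scaling to TPM 2 of the 11 were higher and 0 were lower, against 10.3% and 21.7%. 2410015M20Rik, the annotation's name for the MICOS subunit gene Micos13, rose from 30.7 ± 2.9 to 41.1 ± 3.84 FPKM (log2 fold change 0.41, limma adjusted p = 0.0126). Apoo, another MICOS subunit gene, rose from 14.5 ± 0.558 to 17.6 ± 0.425 FPKM (log2 fold change 0.26, limma adjusted p = 0.00585). Chchd6 and Minos1, also subunit genes, rose by 0.28 and 0.18 on the log2 scale (limma adjusted p = 0.0482 and 0.0236), and neither passed after scaling to TPM (0.22 and 0.10, adjusted p = 0.123 and 0.116). Chchd6 was also lost without any 1 of control replicates 2 and 3 and PGAM5 KD replicates 1 and 3 (adjusted p up to 0.134), and Minos1 without any 1 library other than PGAM5 KD replicate 1 (adjusted p up to 0.0693). Chchd3, the fifth gene of the list that rose and named after its values were seen, rose by 0.17 (limma adjusted p = 0.0393), and did not pass after scaling to TPM (0.10, adjusted p = 0.207) nor without any 1 library other than PGAM5 KD replicate 2 (adjusted p up to 0.103). Corrected for the GC content and length of exons, 2410015M20Rik was at 0.26 and Apoo at 0.16 (adjusted p = 0.0379 and 0.0343), while Chchd6, Minos1 and Chchd3 did not pass (0.20, 0.10 and 0.11, adjusted p = 0.142, 0.0995 and 0.162). In this list and among the fusion accessory genes, 0 also fell at an unadjusted p under 0.05 or with voom. Among all genes tested, 20.1% and 18.0% did so. Immt, the gene for the central scaffold mitofilin and named here after its values were seen, was at 22.9 and 22.6 FPKM on average and did not pass (log2 fold change -0.02, limma adjusted p = 0.676).

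Of 6 tested genes with a role in fusion or in the inner membrane around OPA1, 3 rose and 0 fell (limma), against the same 16.8% and 14.9%, and 2 were higher and 0 lower after scaling to TPM, against 10.3% and 21.7%. Stoml2, a scaffold of the inner membrane that stabilizes OPA1 under stress, rose from 36.2 ± 0.341 to 44.1 ± 0.649 FPKM (log2 fold change 0.28, limma adjusted p = 0.000964). The prohibitin genes Phb and Phb2, whose products form a ring in the same membrane, rose by 0.20 and 0.14 on the log2 scale (limma adjusted p = 0.00317 and 0.0199), and Phb was at 0.12 after scaling to TPM (adjusted p = 0.0276). Phb2 did not pass after scaling to TPM (0.06, adjusted p = 0.248), nor without control replicate 2, control replicate 3 or PGAM5 KD replicate 2 (adjusted p between 0.0566 and 0.0631).

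In the transport list 1 of 5 tested genes was lower, against 14.9% of all genes tested, and 2 were lower after scaling to TPM, against 21.7%. Kif5b, the kinesin heavy chain that carries mitochondria along microtubules, fell by 0.17 on the log2 scale (limma adjusted p = 0.0164), a call lost without control replicate 1 or PGAM5 KD replicate 2 or 3 (adjusted p between 0.0503 and 0.0558). None of 9 tested fission accessory genes and none of 3 genes of the m-AAA protease was called by limma (0 and 0), against 31.7% of all genes tested, with median log2 fold changes of 0.01 and 0.08. At an unadjusted p under 0.05, 1 gene of each list was higher and 0 were lower, against 22.7% and 20.1% of all genes tested. Voom on the recovered fragments called 1 and 0 genes higher, against 18.8%. Both genes, Mtfr1 and Spg7, are named after their values were seen, with log2 fold changes of 0.22 and 0.11 (limma adjusted p = 0.0787 and 0.113).

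**Figure D4:**
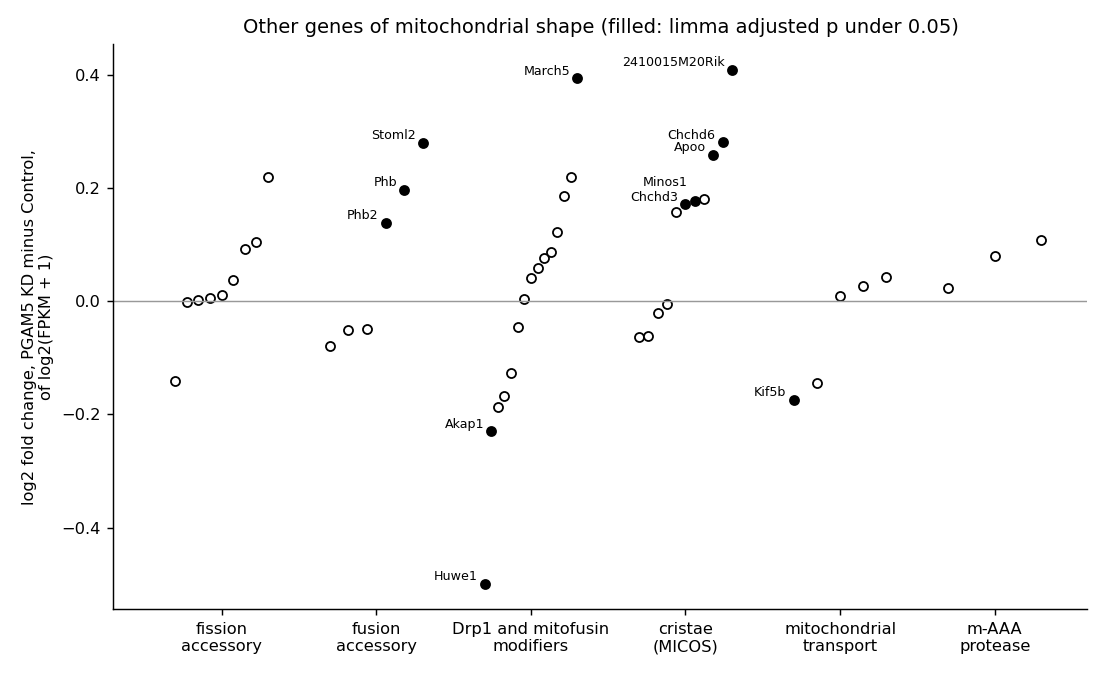
Log2 fold change, PGAM5 KD minus control, on the log2(FPKM + 1) scale (vertical axis), of the 49 tested accessory genes in 6 lists (horizontal axis), where filled circles have a limma adjusted p under 0.05 and carry the gene's symbol. March5 and 2410015M20Rik lie highest, at 0.39 and 0.41, and Huwe1 lowest, at -0.50.

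The promoters of the 4 called genes are shown because these genes moved in opposite directions, so that their motifs can be set side by side. Each is the 250 bases before the most upstream start that RefSeq gives for the gene in GRCm38.p6, written 5′ to 3′ on the gene's strand. Capitals mark the GC box (GGGCGG), the CCAAT box (CCAAT), the ETS site (CCGGAAG) and the short CRE (TGACG), searched on both strands.

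Dnm1l, chr16:16359032-16359281, minus strand: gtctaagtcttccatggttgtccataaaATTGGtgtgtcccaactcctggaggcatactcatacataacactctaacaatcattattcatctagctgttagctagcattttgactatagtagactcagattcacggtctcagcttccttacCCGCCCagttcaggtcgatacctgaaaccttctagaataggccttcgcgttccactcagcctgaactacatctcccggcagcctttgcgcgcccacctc
Mief1, chr15:80233830-80234079, plus strand: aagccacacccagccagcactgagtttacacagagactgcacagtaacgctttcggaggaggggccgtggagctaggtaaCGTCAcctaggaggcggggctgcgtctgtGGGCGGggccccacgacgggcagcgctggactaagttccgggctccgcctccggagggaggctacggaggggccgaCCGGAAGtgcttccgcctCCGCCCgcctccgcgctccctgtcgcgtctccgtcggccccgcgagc
Fis1, chr5:136953025-136953274, plus strand: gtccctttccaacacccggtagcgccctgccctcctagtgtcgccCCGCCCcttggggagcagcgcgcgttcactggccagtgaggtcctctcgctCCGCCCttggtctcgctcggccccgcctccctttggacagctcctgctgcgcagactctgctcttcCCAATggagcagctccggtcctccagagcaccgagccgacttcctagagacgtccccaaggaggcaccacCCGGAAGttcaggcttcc
Mfn1, chr3:32529232-32529481, plus strand: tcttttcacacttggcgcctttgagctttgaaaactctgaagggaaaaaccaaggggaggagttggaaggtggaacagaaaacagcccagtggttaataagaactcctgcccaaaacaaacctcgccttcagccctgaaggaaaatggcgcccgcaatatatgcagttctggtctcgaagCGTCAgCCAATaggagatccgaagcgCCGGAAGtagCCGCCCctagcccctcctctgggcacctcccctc

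A GC box was found in the promoters of all 10 genes, against 33.0% of 27025 promoters (1 per gene) and 61.5% of the 7679 that belong to tested genes. A CCAAT box was found in 7 of the 10, against 34.5% and 37.0%, and a short CRE in 5 of the 10, against 17.8% and 29.7%. The ETS site was in 4 of the 10, against 7.07% and 16.4%, and its holders were Fis1 and Mfn1, which rose, Mief1, which fell, and Yme1l1, which did not pass the test. The promoter of Dnm1l held neither an ETS site nor a short CRE. The NRF1 core (GCGCATGC) was found in Opa1 alone, against 2.31% and 5.25%, and an E-box (CACGTG) in Mief2 alone, against 6.04% and 8.91%. The full CRE (TGACGTCA), which contains the short CRE, and the NF-kB core (GGGACTTT) were in 0 of the 10 promoters, against 1.599% and 2.93% for the first and 1.25% and 0.964% for the second. CpG dinucleotides, as observed over expected number, had a median of 0.772 in the 10 promoters, 0.765 in those of tested genes and 0.379 in all promoters.

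Exons of the 10 genes share few bases with other genes, and few fragments were assigned to those other genes. The processed pseudogene Gm13719 resembles Dnm1l at 88.8% identity over 2174 bases, and Gm14897 resembles Yme1l1 at 96.1% over 207 bases. Both had 0 fragments in every library. AC140267.1, a coding gene whose 213 bases lie within the exons of Mief1, was also listed at 0 throughout.

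**Figure D5:**
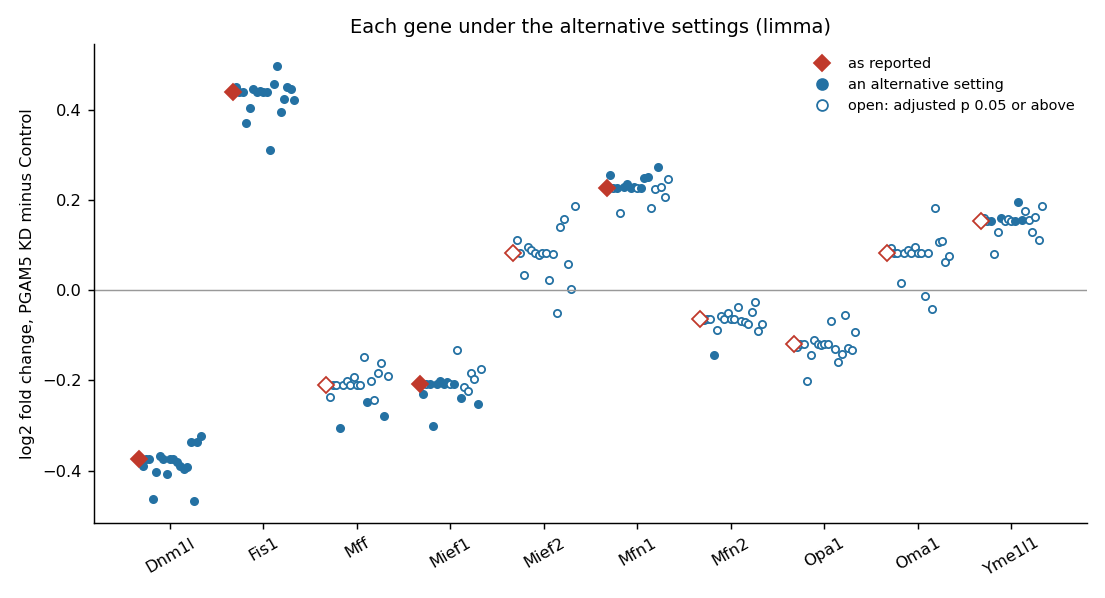
Log2 fold change of each of the 10 genes, PGAM5 KD minus control (vertical axis), as reported (diamonds) and under 18 alternative settings (circles). These change the filter, scale or model or leave out a library, and filled symbols have a limma adjusted p under 0.05. Mief2 has no value at a mean of at least 5 FPKM, and limma warned that the fit without a filter was unreliable. Dnm1l stays between -0.47 and -0.32 and Fis1 between 0.31 and 0.50, filled throughout, while Mief2 and Oma1 cross 0.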

How the data were processed

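The authors deposited FPKM per gene and library. The submitters' processing notes name HISAT2 2.0.5, featureCounts 1.5.0-p3 and mm10, and the annotation and strand setting are not given in the sources used here. In GENCODE M21, which holds 54495 of the 54532 gene identifiers, FPKM times exon length fell on whole multiples of 1 fragment, within 0.01, for 96.8% to 97.1% of values under 1000 fragments, which gave each library's depth. Since the unit is FPKM, a model of counts served only as an alternative (voom on the recovered fragments).

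Genes with a mean of at least 1 FPKM were tested on log2(FPKM + 1), a scale that understates changes of low genes, by limma (version 3.58.1, R 4.3.3, functions lmFit and eBayes, trend of the variance with the mean, no covariates, two-sided p adjusted by Benjamini-Hochberg over all 10540 genes). Genes with an adjusted p-value under 0.05 were called, and those that also had an absolute log2 fold change above 1 were called differentially expressed, the thresholds in the study's methods. Replicates within a group differed by more than sampling noise (chi-square per degree of freedom 5.06 to 8.93). Resembling genes came from blastn 2.17.0 (at least 85% identity over 200 bases), and promoters were matched by symbol for all 10 genes. Python 3.11.15, scipy 1.17.1 and matplotlib 3.10.9 were used.

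The 10 genes, the lists and the tests were chosen with earlier results of these data known. Named are the 10 genes, Pgam5, at most 4 called genes per accessory list by size of change, and genes that overlap or resemble these. Others are marked as chosen after their values were seen. The alternatives were a pseudocount of 0.1, no filter, a mean of at least 5 FPKM, TPM, quantile normalization, median centring and no trend. Further ones were array weights, a replicate block, protein-coding genes alone, voom on recovered fragments, and leaving out each of the 6 libraries. Another was a loess correction of log2 values for the GC content of a gene's longest transcript and the summed length of its exons.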

Additional observations from a re-analysis of the deposited data

How the results depend on the processing

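No member was differentially expressed under any of 17 alternative settings, the fit without a filter left aside, and Pgam5, Dnm1l and Fis1 kept their direction and their call under all of them. Percentages in brackets give the share of all genes tested that was called in the same direction under the same setting. As reported, these shares were 16.8% higher and 14.9% lower. Of the 10 members, the number higher in PGAM5 KD was 2 as reported. It was 1 without a filter on low values (2.79%), 1 after scaling to TPM (10.3%) and 1 with the replicate block (13.7%). It was 3 with a mean of at least 5 FPKM (21.5%), median centring (17.5%) or protein-coding genes alone (20.2%). The correction for GC content and length (13.9%) and voom (18.8%) also gave 3. The number lower was 2 as reported, 1 without the filter (2.30%), 4 under TPM (21.7%) and 1 with the replicate block (11.5%). It was 1 with the correction for the GC content and length of exons (13.3%) and 3 with voom (18.0%). Leaving out 1 library gave 1 to 2 members higher (2 only without control replicate 3), against 11.5% to 14.1% of all genes tested. It gave 1 to 3 lower (3 only without PGAM5 KD replicate 2, 1 without each other library), against 10.7% to 12.9%. Accessory genes higher (9 as reported) numbered 5 under TPM (10.3%), 5 under quantile normalization (13.6%), and 5 to 9 with 1 library left out (11.5% to 14.1%). Accessory genes lower (3 as reported) numbered 1 without the filter (2.30%), 6 under TPM (21.7%), 5 with array weights (15.6%) and 5 with voom (18.0%). With 1 library left out they numbered 1 to 5 (10.7% to 12.9%). The fit without a filter held mostly genes with no spread at all, limma warned that its estimates were unreliable, and its values support nothing. The difference in the summed fission to fusion ratio, PGAM5 KD minus control, was 0.0824, and turned to -0.279 for Dnm1l over Opa1 alone and to -0.165 without Fis1, by the genes left out of the sum. With 1 library left out it lay between 0.0443 and 0.123. Log2 fold changes also turned for Mief2, to -0.0506 without control replicate 1 in a range up to 0.187 with 1 library left out, and for Oma1, to -0.0412 without the same library in a range up to 0.182, and to -0.0126 with the correction for the GC content and length of exons. The causes of these changes were not tested.

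Deviations of same-numbered libraries correlated at -0.02, 0.02 and -0.05, so the numbers were not read as pairs. With the replicate block the adjusted p was 0.0339 for Dnm1l and 0.00841 for Fis1, and the calls of Mief1 (0.0825) and Mfn1 (0.0696) did not pass. Mief2, at 93 to 167 fragments a library, and Oma1, at 238 to 420, have the fewest fragments of the members, and Mief2 drops out at a mean of at least 5 FPKM.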
